A study of Mus musculus with 4 samples.

Results

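The tricarboxylic acid (TCA) cycle, the entry of pyruvate into it, the reactions that refill it and the export of citrate from it were followed through 32 genes, out of 11536 genes in the authors' comparison of knockout with control cells. The members were taken as the rows of that table whose gene name is on a list of enzymes for these reactions, and each name matched 1 Ensembl row. They fall into pyruvate dehydrogenase and its regulators (10 genes), the cycle itself with its cytosolic isozymes (15 genes), the aspartate and glutamate shunts and anaplerosis (6 genes) and citrate cleavage after export (1 gene, Acly). The RNA came from CD4+CD8+ double-positive (DP) thymocytes sorted from C57BL/6 mice, 2 libraries per group. The knockout (KO) mice were Uqcrfs1fl/fl; CD4-Cre+, so both alleles of the Rieske iron-sulfur protein gene of respiratory complex III were floxed and Cre was driven by CD4 regulatory sequences, which act from about the DP stage onwards. The controls carry the genotype label WT but are described for the series as heterozygous littermates, and WT stands here for that group. Their Cre status and the age of the mice are not stated in the labels.

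As background, the cycle oxidises acetyl groups to carbon dioxide and hands the electrons to NAD+ and ubiquinone. NADH is reoxidised by complex I, and the ubiquinol made by complex I and by succinate dehydrogenase is reoxidised by complex III, so the cycle can turn only as far as these electrons are taken up. Pyruvate dehydrogenase feeds pyruvate carbon into the cycle and is switched off by its kinases and on by its phosphatases, while transaminases, glutamate dehydrogenase, malic enzyme and pyruvate carboxylase add or withdraw cycle intermediates for aspartate, nucleotide and lipid synthesis in dividing thymocytes.

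Reads assigned to genes numbered 34080516 and 31728511 in KO replicates 1 and 2, and 32846323 and 30408863 in WT replicates 1 and 2. The 32 members took 0.304% and 0.308% of them in KO and 0.316% and 0.302% in WT. Uqcrfs1, the targeted gene, had 531 and 590 counts in the KO libraries and 2017 and 1737 counts in the WT libraries, and fell by 1.80 on the log2 scale (SE 0.09, adjusted p = 1.78e-04, edgeR's quasi-likelihood test). Of the DP markers, Cd4 stood at 2069 and 2087 CPM (counts scaled to a common library size with TMM factors) in KO and at 1934 and 2092 CPM in WT, and Cd8a at 3002 and 2953 CPM in KO and at 3174 and 3225 CPM in WT. Erythroid markers summed to at most 0.147 CPM in any library. Markers of the preceding double-negative stage summed to 129 and 166 CPM in KO, against 98.1 and 100.4 CPM in WT. The 7 myeloid markers summed to 17.4 and 25.2 CPM in KO, against 18.2 and 17.2 CPM in WT. Mature T cell markers summed to 246 and 257 CPM in KO, against 234 and 231 CPM in WT. KO replicate 2 was highest in each of these lists. B cell markers summed to 28.2 and 26.6 CPM in KO and to 28.1 and 24.6 CPM in WT. Stromal markers summed to 145 and 144 CPM in KO and to 152 and 156.5 CPM in WT. Most of that sum was Pecam1, at 141 and 139 CPM in KO and 146.5 and 150 CPM in WT. Col1a1 went the other way, at 0.587 and 0.820 CPM in KO and 0.335 and 0.296 CPM in WT. The 10 proliferation genes summed to 3915 and 4090 CPM in KO and to 4471 and 3829 CPM in WT, so WT replicate 1 was highest in their sum. All 10 had a log2 change below 0, with a median of -0.088, where 50.1% of all genes tested were below 0. Of the 10, 3 were lower in KO without overlap between groups, as were 20.1% of all genes tested. The part of these markers in the values of the members was not tested.

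None of the 32 members passed the test of a change in KO. At an adjusted p under 0.05 over all 13281 genes tested, 0 members were called in edgeR's quasi-likelihood test, against 3 genes or 0.0226% of all genes tested. Adjusted p values of the members ran from 0.547 to 0.999. At an unadjusted p under 0.05 there were 2 members (Pdpr and Suclg1), where 8.40% of all genes tested passed. DESeq2 and edgeR's likelihood ratio test called 0 members as well, and the authors' deposited table, which marks 46 of its 11536 genes (0.399%) as higher or lower, marks 0 of the 32.
The log2 change was below 0 for 19 members and above 0 for 13, where 50.1% of all genes tested were below 0. The median over the 32 was -0.023, and over all genes tested it was -9.8e-05. Leaving out WT replicate 1 gave a median of 0.0059, with 16 members lower, and leaving out WT replicate 2 gave -0.049, so the sign of the median rested on the first of these libraries. In bulk RNA such as this, fewer cells of a type and less RNA per cell cannot be told apart.

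The counts were deep enough to bound most changes closely. The 95% interval of the change lay between 20% lower and 25% higher in KO for 27 of the 32 members, where 54.4% of all genes tested had such an interval. The 5 members with wider intervals were Pdk2 (0.759- to 1.03-fold), Pdpr (1.02- to 1.30-fold), Suclg2 (0.939- to 1.5-fold), Gpt2 (0.705- to 1.57-fold) and Pcx (0.581- to 1.46-fold). Pcx and Gpt2, with 47 to 82 counts per library, were the least precise, at standard errors of 0.29 and 0.25 on the log2 scale against a median of 0.062 over the members.

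**Figure D1:**
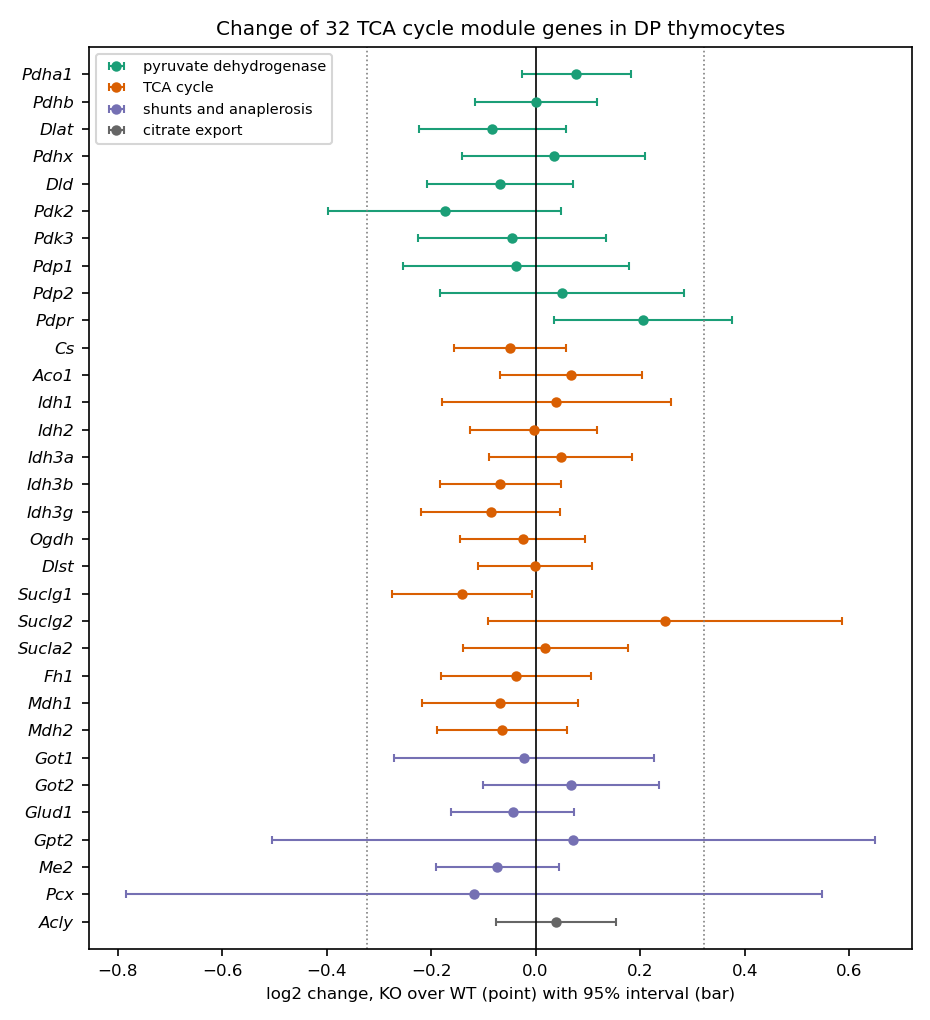
Log2 change of each of the 32 genes (KO over WT, horizontal axis) with its 95% interval from edgeR's quasi-likelihood fit on 2 KO and 2 WT libraries; colours mark the step and dotted lines a level 20% lower and 25% higher in KO. The intervals of 27 genes lie between the dotted lines, and those of Pdpr and Suclg1 do not include 0.

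Pyruvate dehydrogenase joins pyruvate dehydrogenase proper (E1, subunits Pdha1 and Pdhb), the acetyltransferase E2 (Dlat), an E3-binding protein (Pdhx) and the dehydrogenase E3 (Dld, which the 2-oxoglutarate dehydrogenase complex also uses). Of these 5 genes 0 passed the test, and 0 had an unadjusted p under 0.05. Pdha1, the X-linked catalytic subunit, stood at 208 and 209 CPM in the KO libraries and at 198.5 and 197 CPM in the WT libraries. Pdhb stood at 114 and 110.0 CPM in KO and at 114 and 110.2 CPM in WT. The groups did not overlap for Pdha1, which had a log2 change of 0.078 (SE 0.046, adjusted p = 0.672, quasi-likelihood test), and they nearly coincided for its partner Pdhb, which averaged 112.0 ± 2.76 CPM in KO and 112.0 ± 2.45 CPM in WT (SD, n = 2 each). Both counts are uncertain. On either strand, 16.9% of the 50-base stretches of the Pdha1 transcript recur in other genes, with the most in Map3k15, which overlaps Pdha1 on the opposite strand. Of the stretches of Pdhb, 30.3% recur in the gene Gm6123.
Dlat stood at 47.3 and 48.4 CPM in KO and at 52.3 and 48.9 CPM in WT, and Dld at 81.6 and 77.2 CPM in KO and at 86.7 and 79.8 CPM in WT. Both KO values of Dlat lay below both WT values, by a log2 change of -0.083 (SE 0.062), while those of Dld overlapped with WT, at -0.068 (SE 0.062). Pdhx, which ties E3 to the core of the complex, ranged over 23.2 to 24.5 CPM in all 4 libraries.

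The regulators of pyruvate dehydrogenase held the member with the smallest p. Pdpr, the regulatory subunit of pyruvate dehydrogenase phosphatase (ENSMUSG00000033624, on the plus strand of chromosome 8 from 111094630 to 111137074 in mm10), had 73.0 and 77.4 CPM in KO replicates 1 and 2 and 60.6 and 70.0 CPM in WT replicates 1 and 2. Both KO values were above both WT values, as they were for 20.4% of all genes tested. Its log2 change was 0.20 (SE 0.07, 95% interval 0.034 to 0.37), with an unadjusted p of 0.0237 and adjusted p = 0.547 (edgeR, quasi-likelihood test). The WT libraries differed from each other by 0.21 on the log2 scale, as much as the groups did. Without WT replicate 2, which leaves WT replicate 1 alone in its group and assumes that it varies like the KO libraries, Pdpr was the 1 member called (log2 change 0.31, adjusted p = 0.0295), and without WT replicate 1 its change was 0.099 (adjusted p = 0.711). In the authors' deposited table Pdpr has an adjusted p of 0.418, also the smallest of the 32.
The sequence upstream of Pdpr is shown because this gene had the smallest p of the members. It runs 5′ to 3′ in the direction of the gene, from 250 bases before the RefSeq start on GRCm38.p6 (mm10) to the last base before any annotated exon of the gene. Capitals mark TGACGTCA, the palindromic cAMP response element bound by CREB and ATF family factors.
Pdpr, chr8:111094495-111094629, plus strand: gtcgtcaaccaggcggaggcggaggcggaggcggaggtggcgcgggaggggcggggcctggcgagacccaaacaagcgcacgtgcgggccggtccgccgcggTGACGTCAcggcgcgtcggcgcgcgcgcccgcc
The catalytic subunits of the phosphatase were lower in level than Pdpr. Pdp1 had 14.2 and 14.5 CPM in KO and 14.3 and 15.2 CPM in WT, and Pdp2 had 14.0 and 13.7 CPM in KO and 12.6 and 14.1 CPM in WT. Neither separated the groups, at log2 changes of -0.038 (SE 0.095) and 0.051 (SE 0.103).
Pdk2, a kinase that inactivates the complex, had 20.2 and 22.5 CPM in KO and 22.5 and 25.8 CPM in WT. The libraries numbered 2 were higher than those numbered 1 in both groups, and the values overlapped. The log2 change of Pdk2 was -0.17 (SE 0.10, adjusted p = 0.657, quasi-likelihood test), and it ran from -0.27 to -0.077 when a WT library was left out. Pdk3, another of the kinases, stood at 28.8 and 31.2 CPM in KO and at 32.3 and 29.6 CPM in WT, also with overlap.

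Within the cycle 10 of the 15 genes had a log2 change below 0 and 5 above, with a median of -0.024. In the quasi-likelihood test 0 passed, and 1 (Suclg1) had an unadjusted p under 0.05. Without WT replicate 1 that median was 0.022. Cs, citrate synthase at the entry of the cycle, had 219.8 and 226 CPM in KO and 233 and 228 CPM in WT. Aco1, the cytosolic aconitase that doubles as an iron regulatory protein when it lacks its iron-sulfur cluster, had 45.4 and 45.1 CPM in KO and 42.8 and 43.6 CPM in WT. The groups did not overlap for either gene, with Cs lower in KO (log2 change -0.049, SE 0.047) and Aco1 higher (0.067, SE 0.060), both at adjusted p values of 0.776 or above in the quasi-likelihood test.
The NAD+-dependent isocitrate dehydrogenase is built from Idh3a, Idh3b and Idh3g. Idh3b had 155 and 151 CPM in KO and 164 and 156 CPM in WT, and Idh3g had 113 and 111 CPM in KO and 125 and 114 CPM in WT. In both genes the KO values lay below the WT values, as they did for 20.1% of all genes tested, with log2 changes of -0.068 (SE 0.051) and -0.086 (SE 0.059). Idh3a, the catalytic subunit, went the other way, at a change of 0.048 (SE 0.060) and with overlapping groups. The NADP+-dependent isozymes Idh2 of mitochondria and Idh1 of the cytosol had changes of -0.0040 (SE 0.054) and 0.040 (SE 0.097). For Idh2 the KO libraries held both the lowest and the highest value (139 and 150 CPM, against 144 and 146 CPM in WT), and Idh1 stood at 19.3 and 17.7 CPM in KO and at 19.0 and 17.0 CPM in WT.
Of the 2-oxoglutarate dehydrogenase complex, Ogdh (the dehydrogenase) ranged over 276 to 296 CPM and Dlst (the succinyltransferase) over 196 to 203 CPM in the 4 libraries. Their log2 changes were -0.024 (SE 0.053) and -0.0011 (SE 0.048).

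Succinyl-CoA ligase is the step that makes ATP or GTP within the cycle. Suclg1, the alpha subunit shared by both forms (ENSMUSG00000052738, on the plus strand of chromosome 6 from 73248382 to 73276911 in mm10), had 52.6 and 51.0 CPM in KO and 58.4 and 55.8 CPM in WT. Every KO value was below every WT value, and the difference was larger than that between replicates of either group. The log2 change of Suclg1 was -0.14 (SE 0.06, 95% interval -0.27 to -0.0073), with an unadjusted p of 0.0409 and adjusted p = 0.573 (edgeR, quasi-likelihood test). It ran from -0.18 to -0.11 with 1 library left out, where groups that do not overlap leave little room for a change of sign.
Suclg2, the beta subunit of the GTP-forming ligase, had 9.56 and 11.0 CPM in KO and 9.72 and 7.54 CPM in WT. Sucla2, the beta subunit of the ATP-forming ligase, had 54.2 and 57.7 CPM in KO and 58.1 and 52.3 CPM in WT. Both overlapped between groups. Suclg2 had the highest log2 change of the 32 members, 0.25, but its standard error was 0.15 (adjusted p = 0.674, quasi-likelihood test) and WT replicate 1 was above KO replicate 1. The change of Suclg2 was 0.074 without WT replicate 2, where Pdpr, Gpt2, Pcx, Pdp2 and Aco1 were higher, and 0.44 without WT replicate 1. For Suclg2, 21.8% of the 50-base stretches of its principal transcript also occur in other transcripts, all of them in the gene Gm15163, so its counts are uncertain.
The sequences upstream of Suclg1 and Suclg2, cut in the same way, are shown because the log2 changes of these subunits had opposite signs. Neither stretch holds TGACGTCA.
Suclg1, chr6:73248255-73248381, plus strand: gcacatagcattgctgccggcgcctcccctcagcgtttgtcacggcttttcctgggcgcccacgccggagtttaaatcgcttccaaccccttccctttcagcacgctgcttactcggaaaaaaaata
Suclg2, chr6:95718847-95719096, minus strand: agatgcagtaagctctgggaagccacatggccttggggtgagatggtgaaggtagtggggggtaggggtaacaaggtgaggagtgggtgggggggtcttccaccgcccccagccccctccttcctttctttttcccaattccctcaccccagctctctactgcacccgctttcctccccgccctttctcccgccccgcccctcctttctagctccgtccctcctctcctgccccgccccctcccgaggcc
RefSeq promoters on GRCm38.p6 were matched for 29 of the 32 members and searched on both strands from 250 bases before to 50 after the start. TGACGTCA was chosen after the member promoters had been read, so its share among them cannot serve as a test against other promoters. It occurred in 3 of the 29 (Mdh2, Ogdh and Pdpr, 10.3%), in 3.43% of the promoters of 9505 tested genes and in 1.88% of all 27025 promoters. The motif of nuclear respiratory factor NRF1 occurred in 2 of the 29 (Dld and Sucla2; 6.90%), in 11.2% of the promoters of tested genes and in 4.78% of all promoters. It reads GCGCAGGCGC in Dld, with any base accepted at the sixth letter, and in Sucla2 it lies on the opposite strand, where the gene's own strand reads GCGCCTGCGC from 17 bases before the RefSeq start. TNAAGGTCA, bound by estrogen-related receptors, occurred in 0 of the 29, in 0.694% of the promoters of tested genes and in 1.26% of all promoters. No member promoter held more than 1 of the 3 motifs. The matches in Mdh2 and Sucla2 lie before the RefSeq start but after the start of the Ensembl gene. In Dld the match lies after both starts.
Fh1 (fumarase) ranged over 54.8 to 59.8 CPM. Mdh2, the mitochondrial malate dehydrogenase, had 199 and 209 CPM in KO and 221 and 206 CPM in WT, and Mdh1, its cytosolic isozyme, had 205 and 199.7 CPM in KO and 226 and 198 CPM in WT. In both genes WT replicate 1 stood above the other 3 libraries, and the other WT library lay among or below the KO values.

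**Figure D2:**
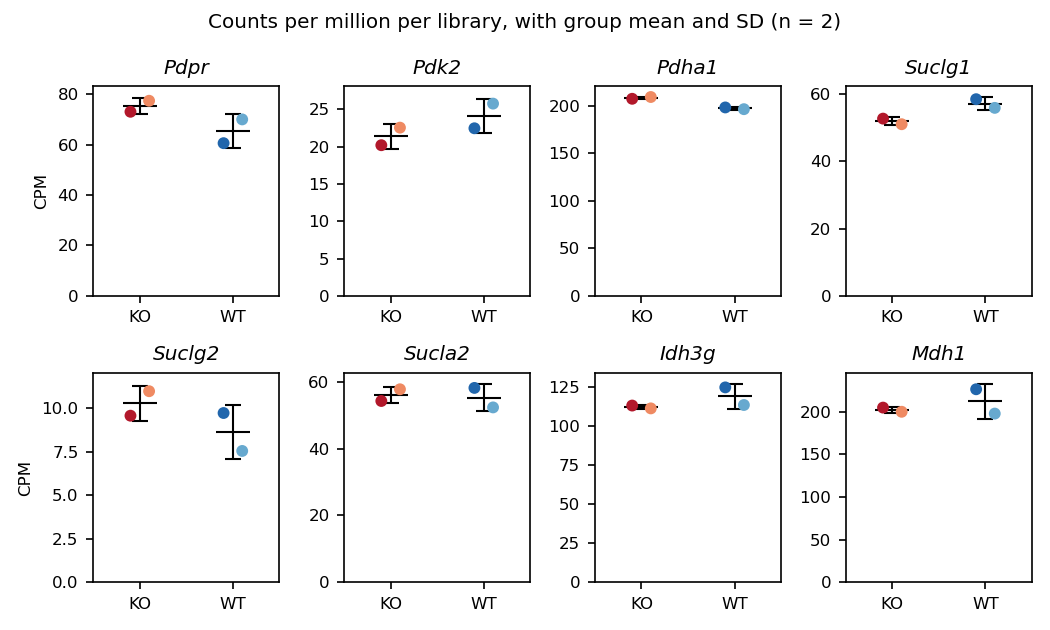
CPM of 8 of the genes in each library (vertical axis from 0), KO left and WT right of each panel, replicate 1 drawn left of replicate 2, with the group mean (bar) and SD (whisker, n = 2). KO and WT points are separate for Pdpr, Pdha1, Suclg1 and Idh3g and overlap for Pdk2, Suclg2, Sucla2 and Mdh1.

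The shunts and anaplerotic enzymes had 4 of 6 log2 changes below 0 and a median of -0.033, and 0 passed the test or had an unadjusted p under 0.05. Got2, the mitochondrial aspartate aminotransferase of the malate-aspartate shuttle, had 54.2 and 56.2 CPM in KO and 56.2 and 49.0 CPM in WT. Got1, its cytosolic isozyme, had 16.6 and 17.5 CPM in KO and 18.9 and 15.6 CPM in WT. In both, the WT libraries stood on either side of the KO libraries. Me2, the mitochondrial malic enzyme that makes pyruvate from malate, had 92.3 and 93.8 CPM in KO and 99.9 and 96.0 CPM in WT, a log2 change of -0.073 (SE 0.052) without overlap. Glud1 (glutamate dehydrogenase) had a log2 change of -0.044 (SE 0.052) and ranged over 106 to 107 CPM in KO and 107 to 113 CPM in WT.
Gpt2, the mitochondrial alanine aminotransferase, and Pcx, pyruvate carboxylase, had the lowest counts of the members. Gpt2 had 76 and 82 counts in KO and 64 and 80 in WT, and Pcx had 51 and 53 counts in KO and 47 and 61 in WT. The groups overlapped in both genes, and changes within their wide intervals were not detectable at this depth.
Acly, which cleaves exported citrate into cytosolic acetyl-CoA, had 342 and 324 CPM in KO and 331 and 317 CPM in WT. Its log2 change was 0.039 (SE 0.050, 95% interval -0.075 to 0.15, adjusted p = 0.845, quasi-likelihood test), with overlapping groups.
By compartment, the 5 cytosolic members (Aco1, Idh1, Mdh1, Got1 and Acly) had a median log2 change of 0.039 and the 27 mitochondrial members -0.038. The cytosolic median was -0.042 without WT replicate 2 and -0.0011 without KO replicate 1.

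In the median, the change between genotypes was smaller than the difference between the WT replicates and slightly larger than that between the KO replicates. The former rests on 2 libraries per group and replicate differences compare single libraries, so the sizes are not on an equal footing. The size of the KO against WT change had a median of 0.057 on the log2 scale over the 32 members, against 0.051 between the KO replicates and 0.099 between the WT replicates (0.085, 0.077 and 0.106 over all genes tested). Only 5 members (Pdha1, Cs, Aco1, Suclg1 and Me2) differed between groups by more than between the replicates of each group, where 31.6% of all genes tested did. KO and WT did not overlap for 10 members, 7 lower in KO (Dlat, Cs, Idh3b, Idh3g, Suclg1, Glud1 and Me2) and 3 higher (Pdha1, Pdpr and Aco1), where 40.5% of all genes tested did not overlap.
In KO replicate 1, 13 of the 32 members stood above their value in KO replicate 2, where 50.3% of all genes tested did. In WT replicate 1, 24 of the 32 members stood above their value in WT replicate 2, where 49.5% of all genes tested did, and the median log2 difference was 0.059. The exceptions were Pdk2, Pdp1, Pdp2, Pdpr, Aco1, Idh2, Gpt2 and Pcx, 4 of which regulate pyruvate dehydrogenase. All 10 proliferation genes were also higher in WT replicate 1 than in WT replicate 2, by a median of 0.25 on the log2 scale. Summed over the cycle genes, the level was 1802 and 1845 CPM in KO and 1921 and 1819 CPM in WT, and summed over the pyruvate dehydrogenase genes 625 and 628 CPM in KO and 617 and 614 CPM in WT. WT replicate 1 was thus the highest library for the cycle sum and stood between the other WT library and KO for the pyruvate dehydrogenase sum.

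**Figure D3:**
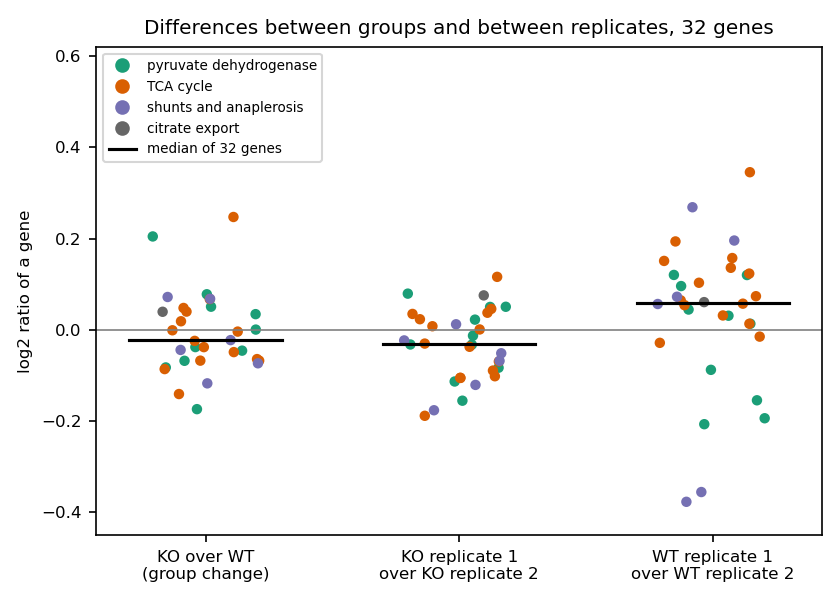
Log2 ratio of each of the 32 genes (points, coloured by step; vertical axis) between the groups, between the KO replicates and between the WT replicates, with the median of the 32 genes as a black bar. The medians are -0.023, -0.031 and 0.059. The WT replicates, which are single libraries, differ over a wider range than the groups, which hold 2 libraries each.

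Ratios of isozymes and partner subunits do not depend on the library total, and were taken within each library as log2 ratios of counts. They compare counts, not levels per length, and were not set against ratios of other gene pairs. Of the 50-base stretches of the principal transcript, 21.8% in Suclg2 and 47.2% in Got2 recur in other genes. Ratios with these genes, as with Pdha1 and Pdhb, are therefore uncertain. Sucla2 over Suclg2 was 2.5 and 2.39 in KO and 2.58 and 2.79 in WT, a difference of -0.24 in the mean. Got1 over Got2 was -1.70 and -1.69 in KO and -1.57 and -1.65 in WT, and Pdp1 over Pdp2 was 0.024 and 0.080 in KO and 0.18 and 0.11 in WT. In these 3 ratios each KO library lay below each WT library.
Pdha1 over Pdhb was 0.87 and 0.93 in KO and 0.80 and 0.84 in WT, and Acly over Cs was 0.64 and 0.52 in KO and 0.51 and 0.48 in WT. Both were higher in KO, by 0.078 and 0.088. With each library left out in turn, the difference ran from -0.34 to -0.13 for Sucla2 over Suclg2 and from -0.13 to -0.047 for Got1 over Got2. The ranges were -0.12 to -0.055 for Pdp1 over Pdp2, 0.046 to 0.11 for Pdha1 over Pdhb and 0.032 to 0.14 for Acly over Cs. Since the groups do not overlap in these 5 pairs, leaving out 1 library could not turn the sign. For the 5 separated pairs the exact permutation test over samples gave p = 0.333 (two-sided), which is the smallest value that 2 against 2 libraries allow, so no pair of the 8 compared could pass a threshold of 0.05, with or without adjustment. The ratios Idh1 over Idh2, Mdh1 over Mdh2 and Pdk2 over Pdk3 overlapped between groups, with KO minus WT differences of 0.046, -0.00077 and -0.13.

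**Figure D4:**
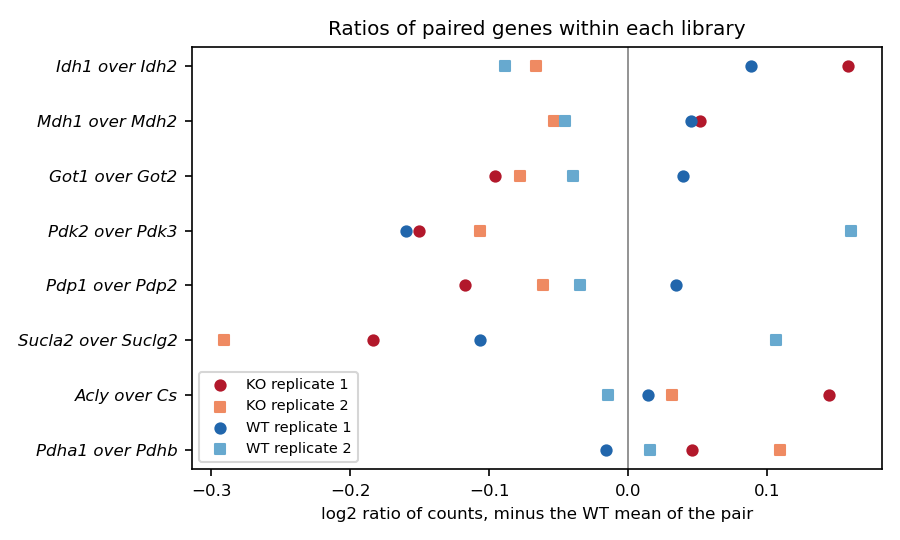
Log2 ratio of the counts of 8 gene pairs in each library, drawn as the distance from the WT mean of the pair (horizontal axis); red and orange are KO replicates 1 and 2, dark and light blue WT replicates 1 and 2. KO and WT libraries are separate for 5 pairs, and the largest difference of means is that of Sucla2 over Suclg2, -0.24.

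The members spanned more than 2 orders of magnitude in level once reads were divided by transcript length. Levels are given as CPM per kilobase of the principal transcript (RPKM), with lengths from GENCODE M21 on mm10. Mdh2 was highest at 137 and 144 RPKM in KO and 152 and 141 RPKM in WT, above all libraries of the next gene, Mdh1 (93.1 to 106.5 RPKM). Idh3b, Idh3g, Idh2, Cs, Acly, Pdhb, Dlst, Pdha1 and Ogdh followed between 66.85 and 101.7 RPKM, and most neighbours in this order overlapped over the 4 libraries. These 11 genes, from Mdh2 to Ogdh, lay above the 90th percentile of the 11351 protein-coding genes tested, and 21 of the 32 lay above the median.
Me2, Suclg1, Glud1, Dld, Idh3a, Sucla2, Fh1 and Got2 held the middle, from 19.4 to 38.45 RPKM, and Pdk3, Pdpr, Dlat, Aco1, Pdk2, Pdhx, Got1 and Idh1 followed from 7.38 to 15.7 RPKM. At the low end stood Pdp1, Suclg2 and Pdp2 at 2.22 to 3.62 RPKM, then Gpt2 at 0.613 and 0.710 RPKM in KO and 0.536 and 0.724 RPKM in WT, and Pcx at 0.368 and 0.411 RPKM in KO and 0.353 and 0.495 RPKM in WT. Of the 31 steps between neighbours in the order, 12 had libraries that did not overlap.

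Levels of partner subunits and isozymes were also compared as ratios within each library. Per kilobase, Pdhb was 0.989 to 1.08 times Pdha1 over the 4 libraries, while Dld was 0.413 to 0.489, Dlat 0.161 to 0.186 and Pdhx 0.128 to 0.136 times Pdha1. Idh3b and Idh3g were 3.50 to 4.06 and 3.13 to 3.75 times the catalytic Idh3a. The ATP-forming subunit Sucla2 was 7.95 to 10.5 times the GTP-forming Suclg2 in level.
Between compartments, Idh1 was 0.0884 to 0.105 times Idh2, Got1 0.377 to 0.414 times Got2 and Mdh1 0.655 to 0.704 times Mdh2, so in each pair the mitochondrial isozyme was the higher. Pdpr was 3.61 to 4.53 times Pdp1, its catalytic partner, and Acly 0.927 to 1.04 times Cs.
Some of these levels are uncertain, because reads that fit several places may be left out or given to another gene. Of the principal transcript, 47.2% of the 50-base stretches in Got2 and 8.17% in Glud1 recur in transcripts of other genes, as given above for Pdhb and Suclg2, against none in 22 of the members. For Pdha1, exons of Map3k15 on the opposite strand cover 21.2% of the transcript, so stretches shared with Map3k15 can be the same place read on the other strand. Exons of Gm45760 on the opposite strand cover 15% of the Got2 transcript.

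**Figure D5:**
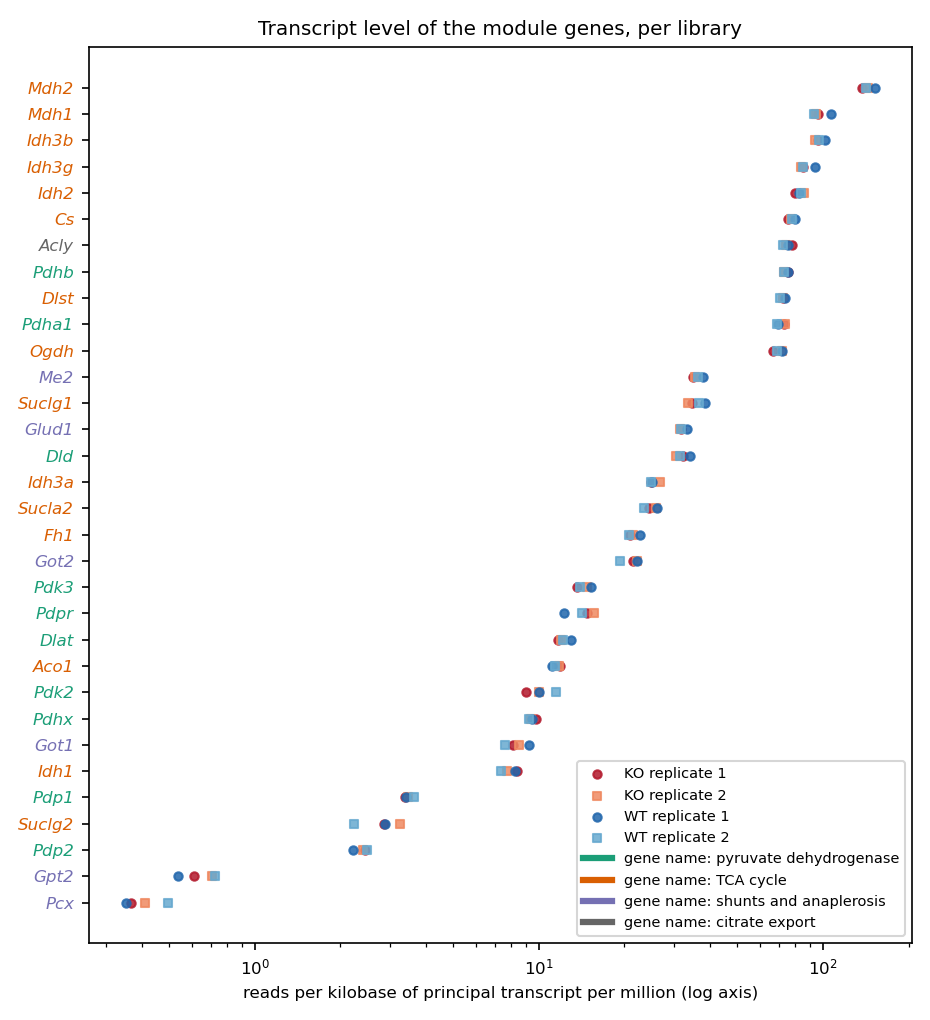
Level of the 32 genes in each library in CPM per kilobase of principal transcript (RPKM, log axis), ordered by the mean of the 4 libraries; gene names are coloured by step. Levels run from 0.353 (Pcx) to 152 (Mdh2), and neighbouring genes have libraries that do not overlap at 12 of 31 steps.

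The wider pathway was described with 38 further genes, of which 32 had enough counts to be tested and 0 were called in the quasi-likelihood test or in DESeq2 (0.0226% of all genes tested were in the first). Sdhc alone had an unadjusted p under 0.05. Of these 32 genes, 23 had a log2 change below 0, where 50.1% of all genes tested did, and the median was -0.060. The median was between -0.082 and -0.058 whichever library was left out. Both KO values were below both WT values for 13 of the 32 genes, where 20.1% of all genes tested showed this.
The 4 genes with the smallest p were Sdhc, Acss2, Slc25a11 and Sdhb. Sdhc, a membrane anchor of succinate dehydrogenase, had 63.3 and 64.2 CPM in KO and 72.4 and 67.7 CPM in WT, a log2 change of -0.14 (SE 0.06, adjusted p = 0.579, quasi-likelihood test). Acss2, which makes acetyl-CoA from acetate in the cytosol and nucleus, had 65.5 and 63.9 CPM in KO and 73.1 and 68.5 CPM in WT. In both genes every KO value was below every WT value.
Slc25a11, the mitochondrial 2-oxoglutarate carrier of the malate-aspartate shuttle, had 70.8 and 67.6 CPM in KO and 76.7 and 74.0 CPM in WT, and Sdhb, the iron-sulfur subunit of succinate dehydrogenase, had 98.2 and 103.9 CPM in KO and 112.9 and 107.0 CPM in WT. Their log2 changes were both -0.12 (SE 0.06 each), at adjusted p values of 0.609 and 0.610 in the quasi-likelihood test. The remaining succinate dehydrogenase subunits, named after their values had been seen, were the flavoprotein Sdha, at 218 and 215 CPM in KO and 233 and 222 CPM in WT, and the anchor Sdhd, at 81.6 and 82.1 CPM in KO and 89.3 and 84.3 CPM in WT. All 4 subunits were thus lower in each KO library than in each WT library, by log2 changes of -0.14 to -0.072. Of all genes tested, 20.1% were lower in KO without overlap, and 0 of the 4 passed the test. In all 4 subunits WT replicate 1 was the highest library. Pdk4 and Pdha2 had 0 counts in every library.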

How the data were processed

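Gene counts of 4 libraries (2 KO, 2 WT, grouped by sample title) were analysed. The submitters' processing notes name Trimmomatic 0.33, STAR 2.5.2, HTSeq, edgeR and the build mm10; how HTSeq treated strand, and its annotation, are not stated there. The deposited counts are raw counts per Ensembl gene. The authors' deposited comparison gives CPM per library, log2 fold changes and log2 mean CPM, p-values with their adjusted values, and a likelihood ratio score from edgeR.

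All genes were fitted with edgeR 4.0.16 (R 4.3.3): genes kept by filterByExpr (a count of at least 10, a total of at least 15), scaling by TMM, the robust quasi-likelihood F test on group, Benjamini-Hochberg adjustment over 13281 genes, threshold 0.05; the fit was tested on simulated data. Log2 changes are KO over WT. Their standard error was taken as the size of the change divided by the square root of F, and 95% intervals use the t quantile of the fit. CPM values use TMM-scaled library sizes, and replicate differences are of log2(CPM + 0.5). Isozyme ratios add 0.5 counts to each gene. HTSeq's summary lines stayed out of the library sizes; reads outside annotated exons made up 17.2% to 20.6% of uniquely aligned reads. Principal transcripts are the APPRIS principal isoforms of GENCODE M21; 50-base stretches stand for reads, whose length is not stated. Protein sequences were not used here. Members, lists and tests were chosen with earlier results of these data known. All 32 members are named: those given library by library are the 12 with the smallest p, Cs, Got2, Acly and the members of isozyme pairs, and of the wider list the 4 with the smallest p. Gpt2 and Pcx, and Sdha and Sdhd of the wider list, were added to these after their values had been seen. Each pair of libraries differed beyond counting noise (chi-square per degree of freedom 4.82 to 12.1 over 13137 genes). WT replicate 2 differed less from KO replicates 1 and 2 (5.46 and 7.74) than from WT replicate 1 (9.005). WT replicate 1 differed from KO replicates 1 and 2 by 10.1 and 12.1. The labels give 2 mice per group. Alternatives were RLE factors, library totals, other filters, DESeq2 1.42.0, the likelihood ratio test, a replicate block and each library left out.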

Additional observations from a re-analysis of the deposited data

Results flagged for a closer look

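Reads outside annotated exons, which the gene counts do not use, made up 20.6% and 19.9% of uniquely aligned reads in KO replicates 1 and 2, against 17.2% and 18.6% in WT replicates 1 and 2, so both KO libraries stood above both WT libraries; this share was not compared between groups with a test.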

How the results depend on the processing

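With 2 libraries per group the number of genes called over the whole table moved with every choice of test, while 0 members were called under all settings except 1. Over all genes, 3 were called (1 higher, 2 lower); without a filter on low counts 191 (114 higher, 77 lower), in DESeq2 24 (12 and 12), in edgeR's likelihood ratio test 102 (67 and 35), and 41 to 365 over the 4 fits without a library (15 to 184 higher, 11 to 181 lower). In those 4 fits 16 to 22 members were lower in KO. The 1 setting with a member called was the fit without WT replicate 2 (Pdpr, log2 change 0.31). That fit also called the most genes over the whole table. With the replicate number as a block, 27 genes were called (18 higher, 9 lower), and 0 members. The replicate numbers were not taken to pair the libraries, since the labels tie them to no shared litter or day; the deviations of KO and WT replicate 1 from their group means had a correlation of 0.075 across 13281 genes and of 0.272 across the 32 members. Medians over left-out libraries ran from -0.011 to 0.0016 for pyruvate dehydrogenase, from -0.060 to 0.022 for the cycle and from -0.042 to 0.070 for cytosolic members. Changes near 0 turned sign: Dlst was 0.00057 with library totals, and Pdhb -0.0041 without a filter and -0.00070 with the filter on 1 CPM. Over left-out libraries the log2 change lay on both sides of 0 for 17 members: Pdhb -0.027 to 0.024, Pdk3 -0.11 to 0.013, Pdp1 -0.087 to 0.0032, Pdp2 -0.032 to 0.13, Idh1 -0.042 to 0.12, Idh2 -0.059 to 0.046, Idh3a -0.0073 to 0.098, Ogdh -0.077 to 0.024, Dlst -0.034 to 0.024, Sucla2 -0.060 to 0.093, Fh1 -0.10 to 0.022, Mdh1 -0.17 to 0.029, Got1 -0.16 to 0.12, Got2 -0.031 to 0.17, Gpt2 -0.14 to 0.30, Pcx -0.35 to 0.14 and Acly -0.0011 to 0.075. The ratios of Idh1 over Idh2 (-0.066 to 0.16), Mdh1 over Mdh2 (-0.053 to 0.051) and Pdk2 over Pdk3 (-0.29 to 0.032) did so too. Of the changes that kept their sign, Dld ran from -0.13 to -0.0099 and Idh3g from -0.16 to -0.020. The cause of these moves was not tested, beyond the loss of a library itself. Depth limits Pcx and Gpt2 most among the members, and 2 mice per group limit every test.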
